A study of Mus musculus with 6 samples.

Results

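The genes of the major histocompatibility complex (MHC) and of antigen processing were followed in mouse ileum after bile duct ligation, with and without a bile acid receptor agonist. Members were all genes whose symbol in the array's annotation starts with H2-, the mouse MHC prefix, and 16 named genes of peptide production, loading and class II regulation. Of these, 48 genes were annotated on the array, where 12393 genes had a probe set of their own. Among the 48, 35 had at least 1 probe set annotated to that gene alone and 13 shared every probe set with a relative. The members had 74 probe sets, 59 assigned to 1 gene and 15 to several, and 54 of the 74 lay above the signal filter and entered the tests. Nlrc5, the activator of class I genes, was the 1 named gene with no probe set in the annotation. By role, 23 genes were class I heavy chains, 10 served class I peptide supply and loading, 11 belonged to class II and its invariant chain and activator, 2 were endosomal processing genes, and Cd1d1 and H2-Ke6 stood apart.

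Ileum RNA of male, wild-type C57BL/6:129Sv mixed-strain mice, 8 to 10 months old, was hybridised to 6 single-colour Affymetrix arrays, 2 a group. Sham_Vehicle mice received vehicle and an operation in which the common bile duct was freed but not tied. BDL_Vehicle mice received vehicle and ligation of the duct, which stops bile from reaching the intestine. BDL_GW4064 mice had the ligation and were given GW4064, which activates the bile acid receptor FXR, at 100 mg/kg/day. Gavage started 2 days ahead of surgery and went on for 5 days afterwards in every group. The sources used here do not say whether a group's arrays stand for different mice, so p-values cover the spread between samples alone, and this may be technical. Where each mouse stood on the mixed background at the MHC, which is highly polymorphic, was not given in the sources used here.

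Class I molecules present peptides from inside the cell. The proteasome, whose interferon-induced subunits form the immunoproteasome, cuts proteins, the transporter TAP carries the peptides into the endoplasmic reticulum, and the heavy chain binds them together with beta-2 microglobulin. Class II molecules present peptides from endosomes, are kept empty by the invariant chain until they arrive there, and are switched on by the coactivator CIITA. In the small intestine class II is carried by macrophages, dendritic cells and B cells and also by the absorptive epithelium, and the class I-like thymus leukaemia antigen encoded by H2-T3 is a product of that epithelium.

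The proximal promoters of these genes are known for shared elements: the X2 box and the Y box of the SXY module, at which CIITA or NLRC5 assemble with DNA-binding factors, and an interferon-stimulated response element. The X2 and Y pair is shown because class II genes and the classical class I genes both hold it. RefSeq promoter windows, 250 bases before to 50 bases after the annotated start on GRCm38.p6, existed for 33 of the 48 genes. In each line below, the first match on the gene's strand to TGANG of X2 and ATTGG of Y, with starts 20 to 30 bases apart, is in capitals. That spacing was chosen after looking at the members. In H2-Eb1 and H2-D1 another TGANG overlaps the marked one, lies nearer to ATTGG within the same spacing, and is left in lower case. Which of the overlapping matches is the X2 box was not tested.
H2-Aa (chr17:34287862-34287917, minus strand): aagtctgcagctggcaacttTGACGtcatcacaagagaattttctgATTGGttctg
H2-Eb1 (chr17:34305761-34305817, plus strand): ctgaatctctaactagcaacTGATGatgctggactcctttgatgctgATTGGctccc
H2-D1 (chr17:35262970-35263027, plus strand): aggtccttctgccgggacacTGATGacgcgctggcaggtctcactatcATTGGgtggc
H2-K1 (chr17:34000354-34000408, minus strand): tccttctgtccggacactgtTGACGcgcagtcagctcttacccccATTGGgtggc
B2m (chr2:122147589-122147643, plus strand): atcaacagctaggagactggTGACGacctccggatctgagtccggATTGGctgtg
The pair was present in 5 of 7 class II genes with a window (H2-Aa, H2-DMb1, H2-DMb2, H2-Eb1 and H2-Ob), in 6 of 14 class I heavy chain genes and in 1 of 9 supply genes, B2m. On the gene's strand it was present in 1.84% of 27025 genes, and on either strand in 3.19%. These matches describe letters in a window and not binding.

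The second element searched, AGTTTCNNT on either strand, is a form of the interferon-stimulated response element. It was in 9 of 14 class I heavy chain windows 0 of 7 class II windows and 1 of 9 supply windows (Psmb8), against 5.65% of all genes. H2-T3 held it, and not the X2 and Y pair, while H2-D1 and H2-K1 held both. The match is in capitals.
H2-T3 (chr17:36190250-36190299, minus strand): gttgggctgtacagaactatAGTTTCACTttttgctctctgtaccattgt
H2-D1 (chr17:35262922-35262971, plus strand): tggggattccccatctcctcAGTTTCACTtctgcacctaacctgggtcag
H2-K1 (chr17:34000410-34000459, minus strand): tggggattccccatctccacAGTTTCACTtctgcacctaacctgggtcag

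Values are MAS5 signals, linear hybridisation intensities already scaled per array, and each probe set is compared only with itself across arrays. Arrays are given as replicate 1 then replicate 2. Differences are on log2(signal + 4), with the standard error (SE) and p from limma, adjusted by the Benjamini-Hochberg method over all 13575 probe sets tested. Every array carried the epithelial markers, with Vil1 between 3274.1 and 3931.3 and the ileal Fabp6 between 2620.5 and 6691.3. Fabp6 and Fgf15 were lower after ligation and higher with GW4064 within ligation (limma adjusted p below 0.05), so the Fabp6 range includes that change. The 18S ribosomal control divided the arrays into sets: both Sham_Vehicle arrays and BDL_Vehicle replicate 1 read 67.3 to 88.7, and BDL_Vehicle replicate 2 and both BDL_GW4064 arrays read 8.6 to 13.3. BDL_GW4064 replicate 2 stood apart for smooth muscle, with markers of that tissue summing to 12498.7 against 596.5 to 1087.6 elsewhere. Stromal markers were higher in both BDL_GW4064 arrays: fibroblast markers summed to 3532.5 and 4442.8 against 1158.4 to 1883 in the other 4, and endothelial markers to 555.7 and 528.8 against 276.8 to 375.7. All 9 fibroblast genes were higher with no overlap within ligation, beside 1514 of 7919 genes tested, and their median was 1.51. Fn1, fibronectin, passed the threshold (log2 1.90, limma adjusted p = 0.0094). These shifts accompany every comparison with BDL_GW4064, and their part in the members' values was not tested. In a tissue homogenate, fewer cells of a type and less RNA per cell cannot be told apart.

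No member probe set passed an adjusted p of 0.05 by limma in any of the 3 comparisons. For ligation alone the count was 0 of 54, beside 0.0295% of all probe sets, and 4 members had an unadjusted p below 0.05, or 7.41% against 6.37% of all. For GW4064 within ligated mice it was 0 of 54 beside 0.0516%, with 6 members, or 11.1%, at an unadjusted p below 0.05 against 7.48%. For BDL_GW4064 against Sham_Vehicle it was 0 of 54 beside 0.0368%, with 16 members, or 29.6%, against 16%. The comparisons share arrays in pairs and are not independent of each other.

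**Figure D1:**
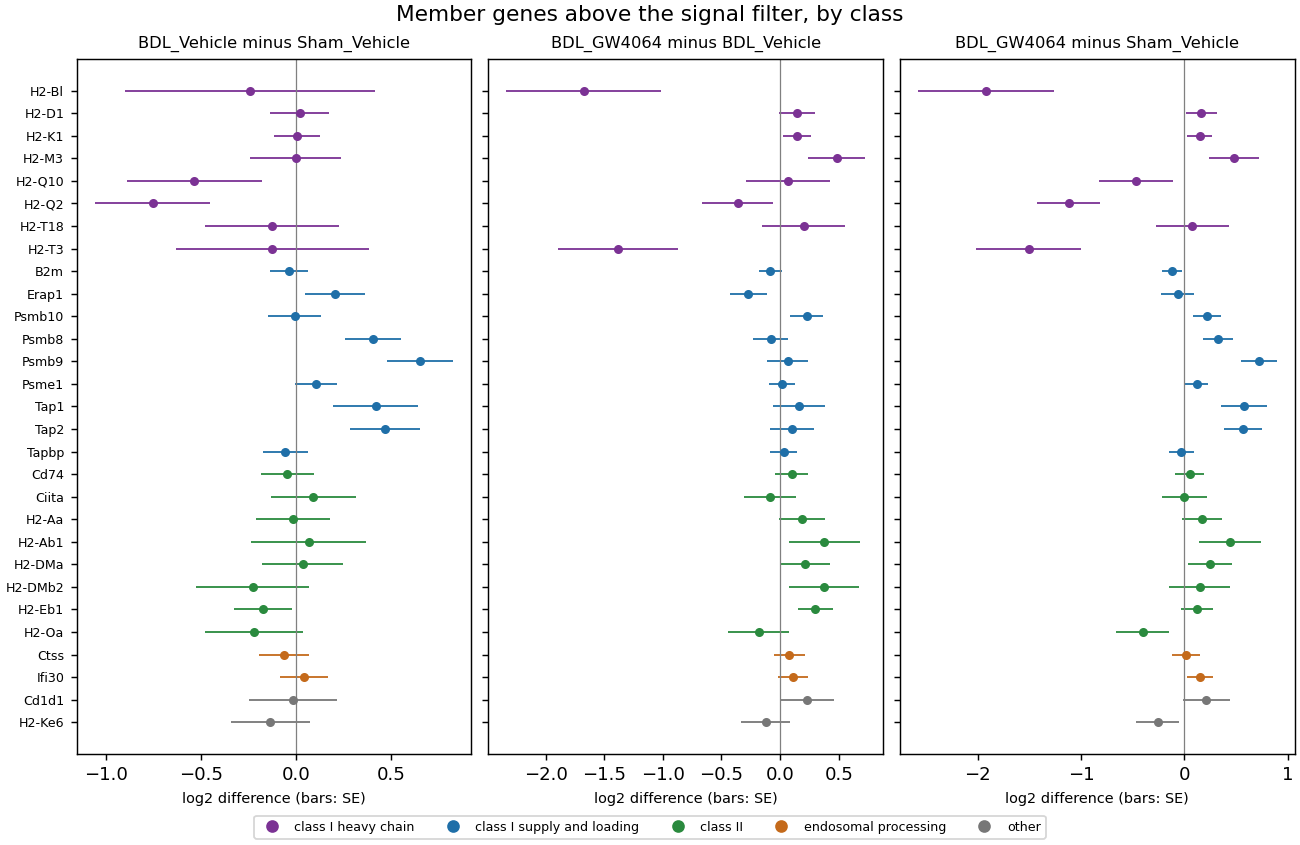
Log2 difference (points) with SE (bars) for member genes above the signal filter, 1 probe set a gene, in the 3 comparisons. The horizontal axes differ in range, colours mark the classes, and no point passed the adjusted threshold. Psmb9 is farthest to the right for ligation (0.65), and H2-Bl and H2-T3 are farthest to the left in both panels with BDL_GW4064.

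Psmb9, Psmb8, Tap1 and Tap2, which encode immunoproteasome and peptide transporter subunits, had higher values in every ligated array than in both sham arrays, although none passed the adjusted threshold. Psmb9, a catalytic subunit of the immunoproteasome, read 344.5 and 321.3 in Sham_Vehicle, 470.5 and 588.1 in BDL_Vehicle, and 618.1 and 489.9 in BDL_GW4064. The Psmb9 difference for ligation was 0.65 (SE 0.17), or 1.57-fold, with a limma adjusted p of 0.68 and an unadjusted p of 0.00596. Against Sham_Vehicle, the Psmb9 signal in BDL_GW4064 was 1.65-fold (log2 0.72, SE 0.17, limma adjusted p = 0.176), while the 2 ligated groups overlapped and differed by 0.06 (SE 0.17).

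Psmb8, a second immunoproteasome subunit, read 547.7 and 530.6 in Sham_Vehicle, 661.2 and 774.4 in BDL_Vehicle, and 741.2 and 617.1 in BDL_GW4064. All 4 ligated arrays lay above the sham arrays. Its log2 difference was 0.41 (SE 0.15, limma adjusted p = 0.751) for ligation, -0.08 (SE 0.15) for GW4064 within ligation, and 0.33 (SE 0.15, limma adjusted p = 0.333) against sham.

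The 2 subunits of the TAP transporter followed the same order. Tap1 read 220.5 and 218.4 in Sham_Vehicle, 258.7 and 335.6 in BDL_Vehicle, and 402.7 and 268.8 in BDL_GW4064. Its difference was 0.42 (SE 0.22, limma adjusted p = 0.751) for ligation and 0.58 (SE 0.22, limma adjusted p = 0.279) for BDL_GW4064 against sham, and its other 3 probe sets were too dim to test. Tap2 read 123.4 and 134.5 in Sham_Vehicle, 162 and 199.4 in BDL_Vehicle, and 212.5 and 175.4 in BDL_GW4064. The Tap2 difference was 0.47 (SE 0.18, limma adjusted p = 0.751) for ligation and 0.57 (SE 0.18, limma adjusted p = 0.231) against sham. Within ligated mice the GW4064 difference was 0.16 (SE 0.22) for Tap1 and 0.10 (SE 0.18) for Tap2, with overlapping arrays.

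These 4 genes are neighbours: in the RefSeq order of chromosome 17, Psmb9, Tap1, Psmb8 and Tap2 lie side by side between H2-DMb1 and H2-Ob. A term for the array set compares ligation inside the set with the high 18S control. With it, the ligation differences were 0.495 for Psmb9, 0.293 for Psmb8, 0.233 for Tap1 and 0.322 for Tap2. The only ligated array in that set is BDL_Vehicle replicate 1, so these values rest on it alone. Of the genes at the ends of that stretch, H2-Ob had only a dim shared probe set. The probe sets shared by H2-DMb1 and H2-DMb2 differed by 0.20 (SE 0.25) and -0.08 (SE 0.36) for ligation. The class II genes H2-DMa and H2-Oa differed by 0.04 (SE 0.21) and -0.22 (SE 0.26) for ligation. Leaving out 1 array gave -0.298 to 0.369 for H2-DMa. Psmb9 and Tap1 are transcribed away from each other. The stretch between their annotated starts is shown because 1 interval serves both genes, with the GGGCGG box, which is on the minus strand here, in capitals.
Tap1 to Psmb9 (chr17:34187331-34187555, plus strand): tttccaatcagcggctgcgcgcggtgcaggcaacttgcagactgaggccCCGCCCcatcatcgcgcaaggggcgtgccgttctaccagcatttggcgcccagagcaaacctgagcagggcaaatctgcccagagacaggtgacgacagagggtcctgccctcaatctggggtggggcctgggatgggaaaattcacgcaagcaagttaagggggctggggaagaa
GGGCGG on either strand was in 6 of 9 supply gene windows and 0 of 7 class II windows, against 38.2% of all genes. The interferon-type repeat GAAANNGAA, on either strand and able to overlap AGTTTCNNT, was in 3 of 9 supply windows (B2m, Erap1 and Psme1), against 9.76% of all genes.

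**Figure D2:**
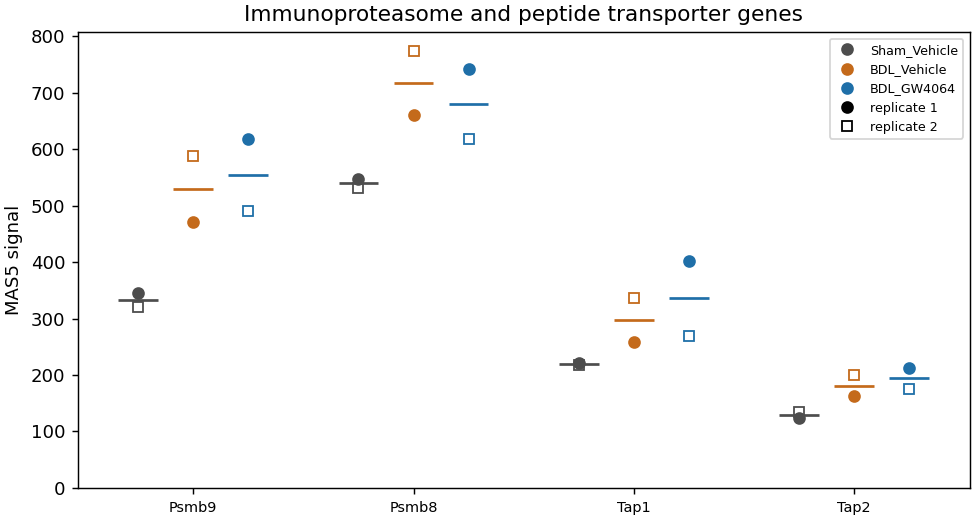
MAS5 signal of Psmb9, Psmb8, Tap1 and Tap2 on an axis from 0, by group, with filled circles for replicate 1, open squares for replicate 2 and short lines for group means. For each gene the 4 ligated arrays lie above both sham arrays, and the 2 ligated groups overlap.

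Of the other supply genes, Psme1 alone had both sham arrays below all 4 ligated ones on its own probe set. Psmb10, the third inducible subunit, read 1024.8 and 1034.9 in Sham_Vehicle, 978.9 and 1072.1 in BDL_Vehicle, and 1335.8 and 1076.1 in BDL_GW4064. The BDL_GW4064 arrays were the 2 highest for Psmb10, by 0.23 (SE 0.14, limma adjusted p = 0.814) over BDL_Vehicle. Psme1, a proteasome activator subunit, ranged from 1477.9 to 1712, with a ligation difference of 0.11 (SE 0.11). Psme2, its partner, could be read only on a probe set shared with Psme2b, from 1174.5 to 1299.

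Erap1, the aminopeptidase that trims peptides, read 180.1 and 191.8 in Sham_Vehicle, 228.4 and 202.7 in BDL_Vehicle, and 168.8 and 186.5 in BDL_GW4064. Both BDL_Vehicle arrays were the highest, 0.21 (SE 0.16) over sham and with BDL_GW4064 at -0.27 (SE 0.16, limma adjusted p = 0.795) from them. Tapbp, which bridges TAP and the heavy chain, ranged from 1402.6 to 1597 on its first probe set, with a ligation difference of -0.06 (SE 0.12). Its second probe set read 509.2 and 303.1 in Sham_Vehicle against 470.1 and 647.2 in BDL_Vehicle, a difference of 0.49 (SE 0.26). The difference on the first was under its SE and so was taken to have no direction. B2m, the light chain of class I, ranged from 3868.1 to 4509 on its first probe set and from 4052.5 to 4638.1 on its second, and the B2m differences lay between -0.12 and 0.03.

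Among the 9 supply genes with their own probe set, 6 had a positive and 3 a negative ligation difference. The 3 negative differences and that of Psme1 were each under their SE. The median was 0.21, beside -0.01 over 7919 genes tested. The median for GW4064 within ligation was 0.03, beside 0.00, and for BDL_GW4064 against sham it was 0.22, beside 0.01. Of all 54 member probe sets tested, 8 (14.8%) were higher with no overlap after ligation, beside 18.2% of all probe sets, and 7 (13%) were lower, beside 18.7%. Among the 9 supply genes, 6 were higher with no overlap after ligation and 0 lower, beside 1434 higher and 1559 lower of the 7919 genes. T and NK cell markers, a source of interferon gamma, summed to 1716.7 and 1179.6, then 1300.9 and 2185.2, then 1741.9 and 2206.8. By these sums both BDL_GW4064 arrays lay above both sham arrays, while the BDL_Vehicle arrays overlapped sham. The list's median by array, each gene centred on its mean, was 0.17 and -0.29, then -0.26 and 0.27, then -0.075 and 0.21. By the medians all groups overlapped. Against sham, 11 of the 16 genes had a positive BDL_GW4064 difference and 5 a negative one, beside 4100 positive of the 7919 genes. Of the 16, 3 were higher with no overlap, beside 1978 of the 7919. The part of these cells in the values of Psmb9 and its neighbours was not tested.

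The classical heavy chains H2-K1 and H2-D1 showed no separation by group on their brightest probe sets. H2-K1 read 4740.9 and 4128.6 in Sham_Vehicle, 4161.6 and 4733.5 in BDL_Vehicle, and 5254.4 and 4586.2 in BDL_GW4064, and the groups overlapped. The H2-K1 difference was 0.00 (SE 0.12) for ligation and 0.15 (SE 0.12) for GW4064 within ligation. H2-D1 read 3861.1 and 2957.4 in Sham_Vehicle, 3290.5 and 3558.7 in BDL_Vehicle, and 4197.4 and 3424.3 in BDL_GW4064. Its differences were 0.02 (SE 0.15) and 0.15 (SE 0.15), and the arrays of all groups overlapped.

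For BDL_GW4064 against sham, the brighter probe sets of these genes gave similar differences, and the dimmer ones did not. For H2-D1, mean signals of 3548.2, 2937.3 and 817.8 went with 0.17, 0.12 and 0.04. Its dimmer probe sets, at 265.6 and 57.9, gave 0.58 and -1.06. For H2-K1, mean signals of 4600.9, 4175.7 and 2118.9 went with 0.15, 0.19 and 0.20. The last 2 of these were higher than sham with no overlap. The dimmest H2-K1 probe set, at 207.6, gave -0.61. A probe set shared by H2-K1 and H2-D1 read 1507 and 2368.5 in Sham_Vehicle, 1752.4 and 2017.4 in BDL_Vehicle, and 3419.2 and 3238.2 in BDL_GW4064. The 2 BDL_GW4064 arrays were the highest there, and its GW4064 difference within ligation was 0.82 (SE 0.20), or 1.77-fold, with a limma adjusted p of 0.341, the smallest of any member in that comparison. Most of these probe sets are of the type whose probes can match other genes, and class I heavy chains are near-identical over long stretches, so which transcript each reads is uncertain.

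The T region gave the largest differences, and they rested on 1 array. H2-T3, the thymus leukaemia antigen, read 503.4 and 507.5 in Sham_Vehicle, 548.3 and 390.4 in BDL_Vehicle, and 2.3 and 328.4 in BDL_GW4064 on its first probe set. The value of 2.3 in BDL_GW4064 replicate 1 lay below the filter signal of 37.1, while replicate 2 was the next lowest. Its second probe set read 458.3 and 517.2, then 396.6 and 502.2, then 85.7 and 329.1, with the same array lowest. A probe set shared by H2-T3 and H2-T18 read 285.1 and 290.1, then 280.4 and 246.9, then 57.1 and 182.2, again lowest there.

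H2-Bl, which RefSeq lists as a transcribed pseudogene of the class I family, read 1766.6 and 1799.4 in Sham_Vehicle, 1564.8 and 1452.1 in BDL_Vehicle, and 191.5 and 1141.7 in BDL_GW4064. Both BDL_GW4064 arrays were below the other 4, with replicate 1 far lower. The GW4064 difference within ligation was -1.68 (SE 0.66, limma adjusted p = 0.605) for H2-Bl, -3.35 (SE 1.47, limma adjusted p = 0.675) and -1.38 (SE 0.51, limma adjusted p = 0.572) for the H2-T3 probe sets and -1.32 (SE 0.44, limma adjusted p = 0.499) for the shared one. Against sham they were -1.92, -3.48, -1.51 and -1.45 in the same order, with limma adjusted p of 0.243, 0.304, 0.239 and 0.21.

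Without BDL_GW4064 replicate 1 the within-ligation differences were -0.4 for H2-Bl, -0.49 and -0.435 for H2-T3 and -0.521 for the shared probe set. Without BDL_GW4064 replicate 2 they were -2.951, -6.211, -2.328 and -2.128, and all 4 then passed the threshold (limma adjusted p from 0.00116 to 0.0322), with the lone array assumed to vary like the other groups. The sizes for the first H2-T3 probe set depend on the added 4, because its signal of 2.3 lies below the filter. With that array set to 37.1, H2-T3 was at least 11.4-fold lower in it than in BDL_Vehicle, and the difference between the groups of 2 was -1.997 in place of -3.35. These were the only member probe sets to pass in any setting tried.

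How unusual that array was can be read from all probe sets tested. Counting probe sets for which 1 array lay more than 4-fold from the nearest of the other 5, with the high side at a signal of at least 148, BDL_GW4064 replicate 1 had 2 far lower among 13575. Both were members, H2-T3 and H2-Bl. The same array had 5 far higher: Usp18 (405.1 against at most 88.3), Oas2 (252.1 against at most 42.3), 2 probe sets of the immunoglobulin heavy chain Ighm (1692.4 against at most 273.5, and 3630 against at most 532.1) and 1 probe set without a gene name here. Usp18 and Oas2 are interferon-induced genes. BDL_GW4064 replicate 2 had 29 far higher and 0 far lower, and no other array had a member on either side. What set this array apart for these 2 genes was not tested.

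H2-Bl and H2-T3 are not neighbours in the RefSeq order, since H2-T-ps and H2-T10 lie among the genes between them. A probe set shared by H2-T23, the Qa-1 gene, and H2-T-ps read 1415.4 and 1827.9 in Sham_Vehicle, 1182.4 and 1331.2 in BDL_Vehicle, and 2382.1 and 1597.7 in BDL_GW4064. It was highest in BDL_GW4064 replicate 1, the array where H2-T3 was lowest, with a GW4064 difference within ligation of 0.64 (SE 0.21, limma adjusted p = 0.487). The other probe set of that pair read 139.3 and 137, then 125.8 and 87.3, then 63.4 and 81, in the opposite direction at -0.52 (SE 0.23). H2-T18 alone ranged from 101.4 to 213.4, its extremes both in Sham_Vehicle. The probe set shared by H2-T9, H2-T22 and H2-T10 read 364.7 and 424.8, then 286 and 331.8, then 438.4 and 375.1, lowest in BDL_Vehicle.

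**Figure D3:**
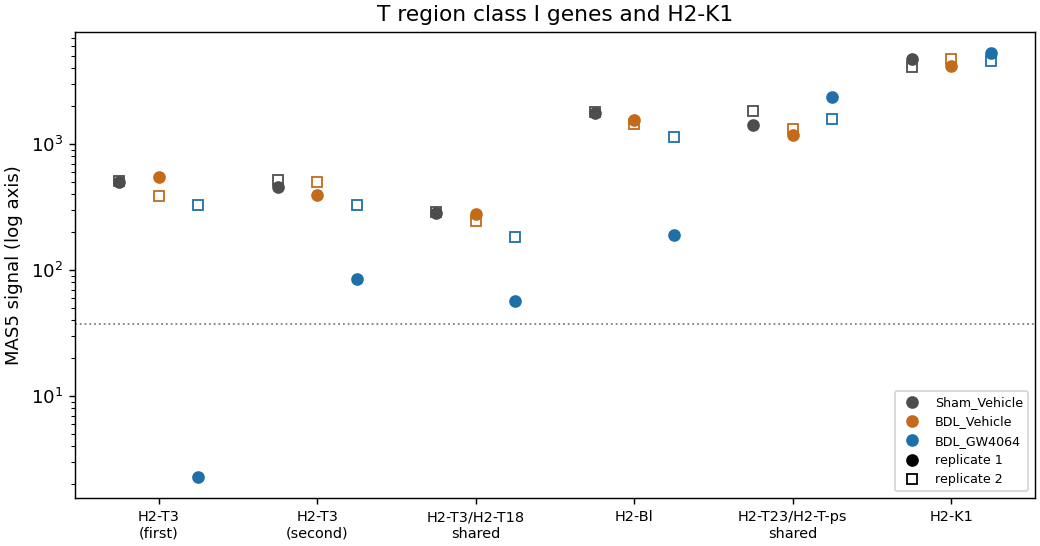
MAS5 signal on a log axis for both H2-T3 probe sets, shared T region probe sets, H2-Bl and H2-K1, by group, with filled circles for replicate 1, open squares for replicate 2 and a dotted line at the filter signal of 37.1. BDL_GW4064 replicate 1 lies far below the other 5 arrays for H2-T3 (2.3) and H2-Bl (191.5) and is the highest for H2-K1 (5254.4).

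In the Q region, H2-Q2, the probe set of the Qa-2 genes H2-Q7 and H2-Q9 and 1 probe set of H2-Q6 and H2-Q8 separated by array set. H2-Q2 read 511.5 and 885.8 in Sham_Vehicle, 515.3 and 305.4 in BDL_Vehicle, and 313.3 and 302.2 in BDL_GW4064. BDL_Vehicle replicate 2 thus lay with the GW4064 arrays, and the difference was -0.76 (SE 0.30, limma adjusted p = 0.751) for ligation and -1.12 (SE 0.30, limma adjusted p = 0.199) for BDL_GW4064 against sham. The probe set shared by H2-Q7 and H2-Q9 read 298.6 and 249.6, then 277.8 and 416.8, then 399.4 and 404. The one shared by H2-Q6 and H2-Q8 read 313.2 and 274, then 265.7 and 448.6, then 456.3 and 458.6. Both were high in the same 3 arrays in which H2-Q2 was low, and their differences against sham were 0.55 (SE 0.21, limma adjusted p = 0.273) and 0.64 (SE 0.24, limma adjusted p = 0.266). Another probe set, shared by H2-Q6, H2-Q8 and H2-Q4, read 42.1 and 44.8, then 53.9 and 64.3, then 37 and 60.1, and did not separate by array set.

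H2-M3, which presents formylated bacterial peptides, read 70.5 and 55.9 in Sham_Vehicle, 55.1 and 71.3 in BDL_Vehicle, and 99.6 and 79.9 in BDL_GW4064. The GW4064 arrays were the highest, by 0.48 (SE 0.24, limma adjusted p = 0.749) over BDL_Vehicle. H2-Q10, a secreted class I gene best known from liver, ranged from 29 to 71.5 with overlapping groups and overlapping array sets. H2-D4, H2-M10.1, H2-M9, H2-T24 and H2-Q5 were below the filter. Over the 13 heavy chain genes with a probe set of their own the median differences were -0.13, 0.15 and -0.22 in the order of the comparisons. Without BDL_GW4064 replicate 1 the last median was 0.019. The 13 include the 5 genes below the filter, and the -0.22 was the value of H2-M10.1 among them. The -0.13 was the value of H2-T18.

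The chains of the class II molecule and its invariant chain differed more between the 2 BDL_Vehicle arrays than between group means. H2-Aa, the alpha chain of the A molecule, read 3468.2 and 2909.3 in Sham_Vehicle, 2536.3 and 3893.9 in BDL_Vehicle, and 3729 and 3441.6 in BDL_GW4064. H2-Ab1, its beta chain, read 1658.5 and 1676.1, then 1208.1 and 2522.6, then 1981.8 and 2592.8. In both genes BDL_Vehicle replicate 1 was the lowest of the 6 arrays, and replicate 2 was among the highest. Cd74, the invariant chain, read 4559.4 and 4269.2, then 3711.3 and 4921.2, then 4807.4 and 4347.9. H2-Eb1, the beta chain of the E molecule, read 1809.8 and 1942.9, then 1434.4 and 1917.8, then 2158.8 and 1937.2.

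H2-Eb1 was the class II gene with the smallest unadjusted p for GW4064 within ligation, at 0.30 (SE 0.15, limma adjusted p = 0.751). H2-Ea, its alpha chain partner, which RefSeq lists as a transcribed pseudogene, was below the filter on all 3 probe sets, at 27.6 or less. H2-DMa, which loads peptide onto class II, read 410.9 and 430.8, then 341.4 and 544.6, then 511 and 492.4. Ciita, the class II activator, read 95 and 94.7, then 85.4 and 120.1, then 86.3 and 104.5. A second Ciita probe set read 83.3 and 74.2, then 79.8 and 83.6, then 66.1 and 58.3, with both BDL_GW4064 arrays lowest, at -0.37 (SE 0.20, limma adjusted p = 0.772) from BDL_Vehicle. On the brightest probe set of each gene, BDL_Vehicle replicate 1 was the lowest array for 6 of the 8 class II genes above the filter, Cd74, H2-Aa, H2-Ab1, H2-Eb1, H2-DMa and Ciita.

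The remaining class II genes belong to the DM and DO molecules. H2-Oa, a subunit of the DM inhibitor, read 59.2 and 48.2, then 50.2 and 40.8, then 43.1 and 36.1, and the BDL_GW4064 arrays lay below sham by -0.40 (SE 0.26, limma adjusted p = 0.476). H2-Ob was read only on a dim probe set shared with a predicted gene, from 26.4 to 48.2. H2-DMb2 ranged from 41.4 to 73.6, both in Sham_Vehicle. H2-DMb1 shared its probe sets with H2-DMb2, and the brighter read 426.8 and 268, then 329.5 and 460.9, then 453.1 and 465.3.

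Over the 9 class II genes with a probe set of their own the median difference was -0.05 for ligation, 0.19 for GW4064 within ligation and 0.12 against sham. Without BDL_Vehicle replicate 1 the first was 0.157 and the second -0.118, so that 1 array set the sign of both. With a term for the array set, the 3 medians became -0.249, -0.118 and -0.355. The -0.249 is also the value without BDL_Vehicle replicate 2, and the -0.118 the value without replicate 1, so each rests on 1 BDL_Vehicle array. The -0.355 rests on the difference between the 2 BDL_Vehicle arrays. Marker lists of cells that can carry or meet class II were read beside this. B cell markers summed to 972.1 in BDL_Vehicle replicate 1 and 1064.5 in replicate 2, and T and NK cell markers to 1300.9 and 2185.2. Macrophage and dendritic cell markers summed to 2896.3 and 2143.1, so the first 2 lists were lower and the last was higher in replicate 1. B cell markers were also low in Sham_Vehicle replicate 2 (993) and BDL_GW4064 replicate 2 (967.3). T and NK cell markers were lowest in Sham_Vehicle replicate 2 (1179.6). Class II genes summed to 11428.4 in Sham_Vehicle replicate 2 and 13030.4 in BDL_GW4064 replicate 2, against 9435.9 in BDL_Vehicle replicate 1. Above the filter were 10 of 13 B cell markers, such as Cd79a from 145.9 to 220.6, 11 of 16 T and NK cell markers, and 13 of 18 macrophage and dendritic cell markers, such as Itgax from 64.7 to 105.6. Below it in every array were Pax5 among the B cell markers and Flt3, Zbtb46 and Xcr1, which mark dendritic cells. The part of these cells in the class II values was not tested.

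**Figure D4:**
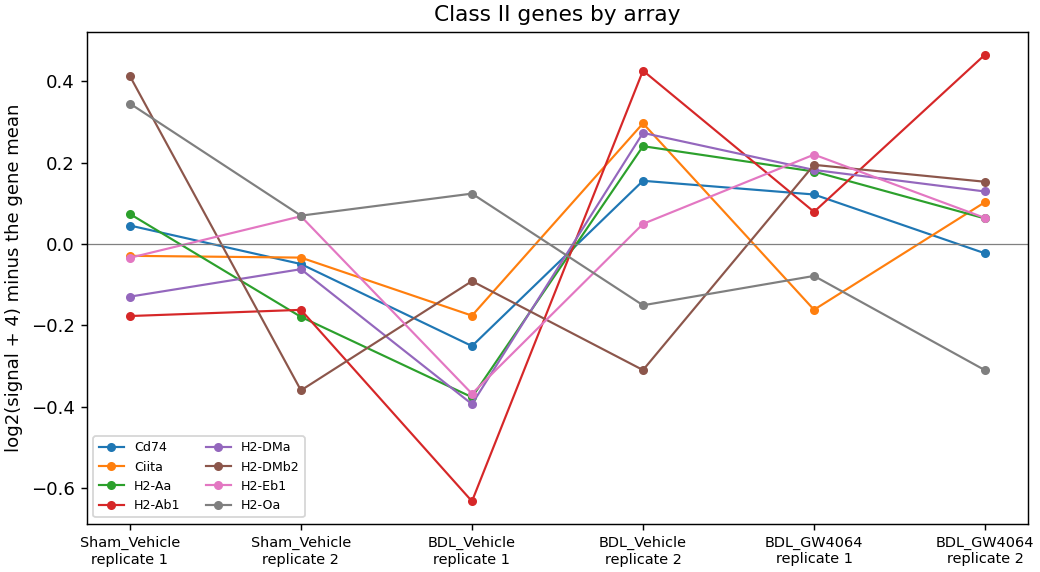
Log2(signal + 4) minus the gene's mean for the 8 class II genes above the filter, the brightest probe set of each, by array, with lines that only join the points of a gene. Cd74, H2-Aa, H2-Ab1, H2-Eb1, H2-DMa and Ciita are lowest in BDL_Vehicle replicate 1, while H2-Oa and H2-DMb2 run otherwise.

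Neither endosomal gene separated the 3 groups. Ctss, the protease that clears the invariant chain, ranged from 1249.2 to 1541.6, both in BDL_GW4064. Ifi30, a thiol reductase, read 1223.1 and 1232.4, then 1177.7 and 1355.7, then 1448.2 and 1287.1, with a difference of 0.15 (SE 0.13) against sham. Cd1d1, which presents lipids, read 54.3 and 55.1, then 47.5 and 61.4, then 62.3 and 65.9, highest in BDL_GW4064 by 0.23 (SE 0.23) over BDL_Vehicle. H2-Ke6, a steroid dehydrogenase gene that carries the MHC prefix by position, ranged from 107.9 to 162.5.

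For GW4064 within ligation, 11 members (20.4%) were higher with no overlap, beside 17.4% of all probe sets, and 8 (14.8%) were lower, beside 18.1%. Against sham, BDL_GW4064 was higher with no overlap for 21 members (38.9%), beside 23.8%, and lower for 11 (20.4%), beside 26.3%. Both BDL_GW4064 arrays belong to the low 18S set and both sham arrays to the high one. Taking the sets in place of the groups, the set with the low 18S control was higher with no overlap for 18 members (33.3%), beside 11.2% of all probe sets, and lower for 8 (14.8%), beside 16.5%. The 18 included Psmb9, Tap1, Tap2, Psmb10, H2-DMa, Ifi30 and all 3 H2-Ab1 probe sets. Treatment and array set cannot be told apart in the comparison of BDL_GW4064 with sham except through the BDL_Vehicle arrays, 1 in each set.

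Genes around the pathway were read in the same way, and no gene of these lists passed the adjusted threshold by limma. Of 19 interferon gamma response genes, which include Psmb8 and Psmb9, 15 had a positive ligation difference, with a median of 0.23, beside 3790 positive of all 7919 genes. The 2 at an unadjusted p below 0.05 were Psmb9 and Psmb8 themselves, beside 234 higher and 242 lower of all genes. Igtp, an interferon-induced GTPase, read 143.2 and 125.5, then 184.9 and 165.7, then 314.8 and 165.5. Gbp3, a guanylate binding protein, read 57.5 and 65, then 55.4 and 45.1, then 115.2 and 95.6. Gbp3 was higher in both BDL_GW4064 arrays than in the other 4, by 1.01 (SE 0.22, limma adjusted p = 0.285) over BDL_Vehicle.

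Of 15 constitutive proteasome genes, 13 had a positive ligation difference, with a median of 0.13. Psmb6, whose product Psmb9 replaces in the immunoproteasome, read 604 and 631.2, then 708.3 and 777.5, then 720.5 and 788.3, a ligation difference of 0.26 (SE 0.13, limma adjusted p = 0.751). Among 9 genes of folding and loading in the endoplasmic reticulum the median was 0.16 for ligation and -0.16 for GW4064 within ligation. Among 8 regulators of class II transcription, such as Rfxap and Nfya, it was -0.12 and 0.03.

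Of 11 further endosomal protease and partner genes, 6 had a positive and 5 a negative ligation difference, with a median of 0.07, and 10 were positive for GW4064 within ligation, with a median of 0.19. Lgmn, the asparaginyl endopeptidase legumain, read 134.9 and 162.9 in Sham_Vehicle, 303.3 and 359.8 in BDL_Vehicle, and 400.8 and 487.6 in BDL_GW4064. The 3 groups did not overlap, and its difference was 1.13 (SE 0.18, limma adjusted p = 0.212) for ligation and 1.55 (SE 0.18, limma adjusted p = 0.0715) for BDL_GW4064 against sham. Ctsl, cathepsin L, read 155.1 and 166.6, then 104.7 and 124.9, then 217.3 and 321.1, lowest in BDL_Vehicle. Its GW4064 difference within ligation was 1.18 (SE 0.22, limma adjusted p = 0.208). Macrophage and dendritic cell markers summed to 1932.5 and 2128.3, then 2896.3 and 2143.1, then 3492.6 and 3163.3, highest in BDL_GW4064 as Lgmn and Ctsl were, and their part in those values was not tested. Of the 18 macrophage and dendritic cell genes, 15 had a positive GW4064 difference within ligation and 3 a negative one, with a median of 0.44.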

How the data were processed

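Ileum RNA on 6 arrays was compared, with 2 arrays in each of 3 groups taken from the sample titles. The deposited values were intensity values, MAS5 signals per the submitters' processing notes; MAS5 version, settings and detection calls are not given in the sources used here. Per the labels, labelling reactions were run in batches, not named there. Each array's mean after trimming 2% at each end was 200.1. Of 22690 probe sets 64 controls were left out, and those in the lowest 40% by mean log2 signal (below 37.1), which left 13575. Symbols came from the platform annotation. For the members, 59 probe sets had an identifier in RefSeq and 0 symbols differed.

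Log2(signal + 4) was fitted with limma 3.58.1 (R 4.3.3), 1 mean per group, all 6 arrays, a prior following signal, 3 residual and 4.71 prior degrees of freedom, and a threshold of 0.05. Because of the added 4, folds of dim genes are understated. With 2 arrays a group no exact permutation test was used, and the number of arrays limits the precision. In 10 simulations of the ligation comparison, 200 of 13575 probe sets were changed. There limma recovered 34.7% of the 2-fold changes, 94% of those of 4-fold and 99.4% of those of 8-fold. The simulated noise was independent, with no array set and no outlying array, and more probe sets were changed than the real comparisons called. These rates may therefore not hold for the real arrays, where H2-T3 at -3.35 within ligation had a limma adjusted p of 0.675. In lists a gene counts once, through the brightest (mean log2) of the probe sets that are its own. Array sets were split at the largest gap of the 18S control. A term for the set is estimated from the BDL_Vehicle arrays alone, 1 in each set.

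The members and lists were chosen with earlier results of these data known. Named with every array value or their range were the classical class I and class II genes, the supply, endosomal and activator genes, Cd1d1, members past the threshold, the 6 with the smallest p in each comparison, and the 6 H2- genes with the highest signal; other lists gave up to 3. Same-numbered arrays did not deviate together (correlations of 0.04, 0.09 and -0.12), so replicate numbers were not taken as pairs. Alternatives were pseudocounts of 1 and 16, no filter, median centring, quantile normalisation, no signal trend, only the 4 arrays compared, the array set, the replicate block, the mean over probe sets, and leaving out each array.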

Additional observations from a re-analysis of the deposited data

How the results depend on the processing

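Differences under 1 SE were taken to have no direction. The count of member probe sets called was 0 in all 3 comparisons under every setting that kept all arrays, among 54 tested or all 74 without the filter. With the replicate number as a block the count was 0 too, and over all probe sets it called 2 for ligation, 4 for GW4064 within ligation and 0 for BDL_GW4064 against sham, in place of 4, 7 and 5. Leaving out 1 array at a time gave 0 to 4 members called in both comparisons with BDL_GW4064, the 4 coming without BDL_GW4064 replicate 2, and 0 for ligation.

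List medians moved as follows, with the causes not tested. For ligation, leaving out 1 array gave -0.211 to 0.044 for class I heavy chains, -0.249 to 0.157 for class II and 0.137 to 0.252 for supply genes, and the array set gave -0.249 for class II. For GW4064 within ligation, leaving out 1 array gave 0.03 to 0.124, -0.118 to 0.301 and -0.102 to 0.093 in that order of lists. The array set gave 0.03 for heavy chains and -0.118 for class II, and for heavy chains a pseudocount of 16 gave 0.046 and the mean over probe sets 0.056. For BDL_GW4064 against sham, leaving out 1 array gave -0.238 to 0.019, 0.004 to 0.168 and 0.063 to 0.374. The array set gave -0.036, -0.355 and 0.098, and quantile normalisation -0.148 for heavy chains.

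Signs of single probe sets turned with the array set for BDL_GW4064 against sham in H2-K1 (-0.036), H2-Ab1 (-0.617), H2-DMa (-0.416) and Ifi30 (-0.05), and for GW4064 within ligation in H2-Q2 (0.011), H2-Ab1 (-0.154) and H2-DMa (-0.118). The last 3 turned to the same values without BDL_Vehicle replicate 1, and leaving out 1 array gave -0.736 to 0.011, -0.154 to 0.906 and -0.118 to 0.55. For ligation, H2-Eb1 ranged from -0.386 to 0.032, turning without BDL_Vehicle replicate 1. Against sham, H2-D1 ranged from -0.026, without Sham_Vehicle replicate 2, to 0.358, and the probe set of H2-T23 and H2-T-ps from -0.01, without BDL_GW4064 replicate 1, to 0.565. A design of 2 arrays a group and signals near 37.1 limit what can be detected.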

Other observations

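Genes that tracked the class II pattern across arrays were looked for without regard to group. Over the 6 arrays, the probe sets with the highest Pearson correlation to the median of the class II genes were those of Nek6 (0.993), Ppp2r5c (0.987), Vps18 (0.983), Gimap4 (0.982) and Cyhr1 (0.973). This is a description over 6 arrays picked from all probe sets of 1 gene, and the arrays share scaling and array set. Gimap4, a GTPase gene of lymphocytes, read 233.5 and 190.7 in Sham_Vehicle, 156.9 and 258.2 in BDL_Vehicle, and 232.8 and 232.2 in BDL_GW4064, lowest in BDL_Vehicle replicate 1 as Cd74 was.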
